A study of Rattus norvegicus with 4 samples.

Results

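The paralogous microRNAs miR-101a and miR-101b were followed through small RNA libraries of rat liver. They were taken by name, as the rows rno-miR-101a and rno-miR-101b without an asterisk, and they are 2 of the 680 rat miRNA names listed in each file. Liver labelled as hepatic fibrosis tissue was compared with liver labelled as hepatic normal tissue, with 2 samples in each group. The labels used here give no strain, age, cause of fibrosis or treatment that would separate the groups further, and do not say whether replicates are separate animals. Fibrosis replicate 2 and normal replicate 2 had 0 differing values over the 680 names, and were therefore counted once, as the twice-deposited library, which belongs to no settled group. The column header equalled a sample title in 3 of the 4 files, and the file of normal replicate 2 was the exception. This left 3 distinct libraries, with 1 library under each undisputed label, so that differences between them have no replicate check.

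MicroRNAs guide a silencing complex to messenger RNAs, chiefly by pairing through their seed, bases 2 to 8 from the 5′ end. miR-101 is abundant in hepatocytes and is best known as a repressor of EZH2, a histone methyltransferase, and as a miRNA that is often low in liver cancer. The mature guide strand comes from the 3′ arm of the hairpin, and the 5′ arm gives the strand that carries the asterisk in these files.

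The guide strands are shown because their near identity bears on every value of the pair. Both members had a mature sequence in the RefSeq table (build GRCr8), under the names miR-101a-3p and miR-101b-3p. Capitals mark the seed and the single base at which they differ, and miR-144-3p is set beside them with its seed in capitals.
miR-101a-3p: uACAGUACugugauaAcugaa
miR-101b-3p: uACAGUACugugauaGcugaa
miR-144-3p: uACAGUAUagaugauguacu
The members shared 20 of 21 bases, and the difference was A16G, counted from the 5′ end with the miR-101a base first. They had the same seed, and no other of the 724 mature rat miRNAs in that table carried it. miR-144, an erythroid miRNA, was the only further one with the same bases 2 to 7, and departed from the members at C8U. A read of the pair can be assigned only where base 16 is read correctly, and how the authors assigned such reads is not given in the sources used here, so the division between the 2 names is uncertain.

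The hairpins are shown because the members come from separate loci that differ much more outside the guide. Capitals mark the guide strand.
Mir101a: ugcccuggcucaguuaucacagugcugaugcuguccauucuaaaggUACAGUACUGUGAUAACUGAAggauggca
Mir101-2: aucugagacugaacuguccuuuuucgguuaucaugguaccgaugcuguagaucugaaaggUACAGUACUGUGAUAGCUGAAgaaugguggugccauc
In GRCr8 the miR-101a guide lies at chr5:121081691-121081711 on the minus strand, within the span of LOC120102934, a long non-coding RNA gene. The miR-101b guide lies at chr1:236273982-236274002 on the plus strand, within the span of Rcl1, a protein-coding gene. Whether these positions are intronic was not analysed here. The miRNA files carry no coordinates, and the submitters' notes name another build, rn5. The 5′ arms differed at 5 of 22 bases, marked in capitals.
miR-101a-5p: ucAguuaucaCAguGcUgaugc
miR-101b-5p: ucGguuaucaUGguAcCgaugc

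The deposited RPM implied a total of between 6357069 and 7070374 reads per library, of which 50.5% to 52.5% fell on listed miRNAs. Liver identity was plain from the 3 hepatocyte markers miR-122, miR-192 and miR-194, which summed to between 251792 and 272148 reads per 1000000 reads (RPM) and were read in every library. miR-122 and the let-7 names took 95.7% to 96.2% of the miRNA reads, so small shifts in them move every share given over the whole library. The 95% intervals below are exact and cover counting error only. These reads carry no molecular identifiers, and the intervals treat each read as separate.

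miR-101b was the more abundant member and miR-101a the lesser in each library. miR-101b stood at 1368 RPM in normal replicate 1 (9675 reads, 1341 to 1396), at 1353 RPM in the twice-deposited library (8602 reads, 1325 to 1382) and at only 1141 RPM in fibrosis replicate 1 (7933 reads, 1116 to 1167). Fibrosis replicate 1 was the low library, with an interval that met neither of the others, while the intervals of the other two overlapped. miR-101a stood at 211 RPM in normal replicate 1 (1491 reads, 200.3 to 222), at 201 RPM in the twice-deposited library (1280 reads, 190.5 to 213) and at only 162 RPM in fibrosis replicate 1 (1127 reads, 153 to 172). Again fibrosis replicate 1 alone lay apart and the other two overlapped. From the lowest to the highest library the level spanned 1.20-fold for miR-101b and 1.30-fold for miR-101a.

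**Figure D1:**
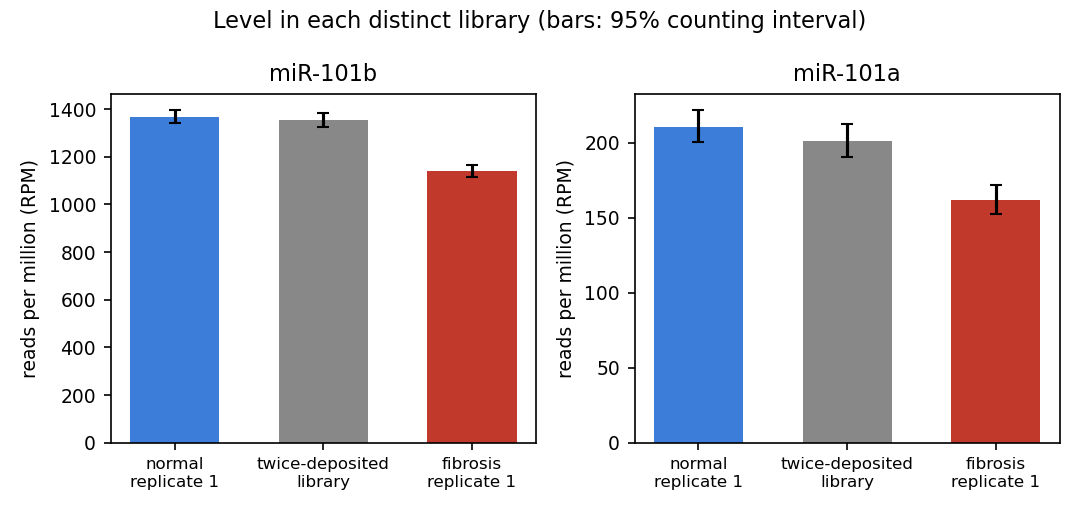
Level of miR-101b (left) and miR-101a (right) in RPM in the 3 distinct libraries, with bars from 0 and 95% counting intervals. Fibrosis replicate 1 is the lowest for both, at 1141 and 162 RPM.

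As shares of all miRNA reads the members were small, and as shares of what miR-122 and let-7 left over they were not. Of the miRNA reads of normal replicate 1, 0.265% (0.260 to 0.270) were miR-101b, against 0.258% (0.252 to 0.263) of those of the twice-deposited library and 0.226% (0.221 to 0.231) of those of fibrosis replicate 1. miR-101a made up 0.0408% (0.0388 to 0.0429), 0.0383% (0.0363 to 0.0405) and 0.0321% (0.0303 to 0.0341) in the same order. Once miR-122 and the let-7 names were set aside, both members together held 7.12% of the remaining reads of normal replicate 1 (6.99 to 7.24), 7.81% of those of the twice-deposited library (7.67 to 7.96) and 6.41% of those of fibrosis replicate 1 (6.28 to 6.54). On that denominator fibrosis replicate 1 was again lowest, but the twice-deposited library lay above normal replicate 1 instead of beside it.

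The place of each member in the abundance order did not move. miR-101b ranked 10 and miR-101a ranked 24 in each of the 3 distinct libraries. Of the 27 names that were among the 30 most abundant in all 3 libraries, 9 kept 1 rank throughout, and miR-101a and miR-101b were among these. Mature miRNAs are read from end to end, so no correction for length was made and ranks were taken on RPM directly.

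Around miR-101b the order was close. In normal replicate 1 the name above it, let-7e, stood at 1.06 times its level and the name below it, miR-423*, at 0.904 times. In fibrosis replicate 1 miR-29a, a repressor of collagen genes, stood above it at 1.35 times and miR-423* below it at 0.942 times. In the twice-deposited library miR-29a stood above it at 1.21 times and miR-21, which is often raised in fibrotic organs, below it at 0.871 times. The counting intervals of miR-101b met those of none of the 3 names above and 3 names below it in any library. Its rank by RPM is thus resolved against counting error only, and its level relative to let-7e changed from 1.06-fold to 1.59-fold below between libraries.

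miR-101a stood apart from its neighbours in the order, by gaps above and below whose widths differed between libraries. miR-152, at 1.96 times its level in fibrosis replicate 1 and 1.22 times in normal replicate 1, and miR-26a, at 1.36 times in the twice-deposited library, were the names directly above it. The names directly below were miR-30d at 0.863 times in fibrosis replicate 1 and miR-122*, the minor strand of miR-122, at 0.762 times in normal replicate 1 and 0.702 times in the twice-deposited library. No interval of these 3 names above and 3 below met that of miR-101a in any library either. Added into 1 family, the members would rank 9 in normal replicate 1 and 10 in the other two, each time just below miR-29a.

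**Figure D2:**
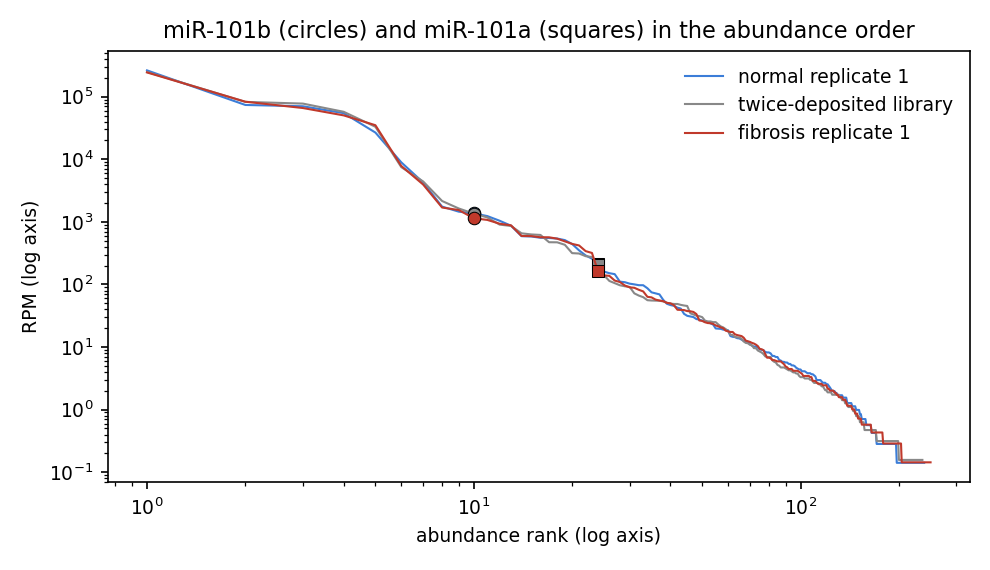
RPM against abundance rank on log axes for every name with a read in each of the 3 libraries, with miR-101b as circles and miR-101a as squares. The symbols stand at ranks 10 and 24 on every curve.

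The balance between the paralogues was uneven and nearly the same in each library. Of the reads of the pair, miR-101a supplied 13.4% in normal replicate 1 (1491 of 11166, interval 12.7 to 14.0), 13.0% in the twice-deposited library (1280 of 9882, 12.3 to 13.6) and 12.4% in fibrosis replicate 1 (1127 of 9060, 11.8 to 13.1). Put the other way, miR-101b exceeded miR-101a 6.49-fold (6.14 to 6.86), 6.72-fold (6.34 to 7.13) and 7.04-fold (6.61 to 7.50). The 3 intervals overlapped. This measure needs no scaling, since both members are read in the same library.

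Between fibrosis replicate 1 and normal replicate 1 the odds of a miR-101 read being miR-101a had a ratio of 0.922 (0.848 to 1.002), a difference of -0.914 percentage points. The ratio was 0.955 (0.875 to 1.04) between fibrosis replicate 1 and the twice-deposited library, and 0.966 (0.890 to 1.05) between the twice-deposited library and normal replicate 1. All 3 intervals included 1, so a shift in balance was not detectable at this depth, and odds lowered below 0.848 times lay outside the interval of the first comparison.

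Among other closely related pairs the miR-101 balance was one of the steadier ones. Of 24 pairs considered, 11 had both members listed and averaging at least 10 RPM. The major-to-minor ratio of miR-101 spanned 1.08-fold over the 3 libraries, against a median of 1.28-fold and a range from 1.05-fold to 2.26-fold in these 11 pairs. One pair, let-7f with let-7d, was steadier, and 10 spanned more, of which miR-30d with miR-30a (1.09-fold) and miR-125b-5p with miR-125a-5p (1.09-fold) were close to miR-101 and miR-26b with miR-26a was the widest. Pairs with few reads span more by counting error alone, and some pairs share a member, so this order is a description. In 3 of the 11 pairs the members were further apart in level than miR-101b and miR-101a.

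**Figure D3:**
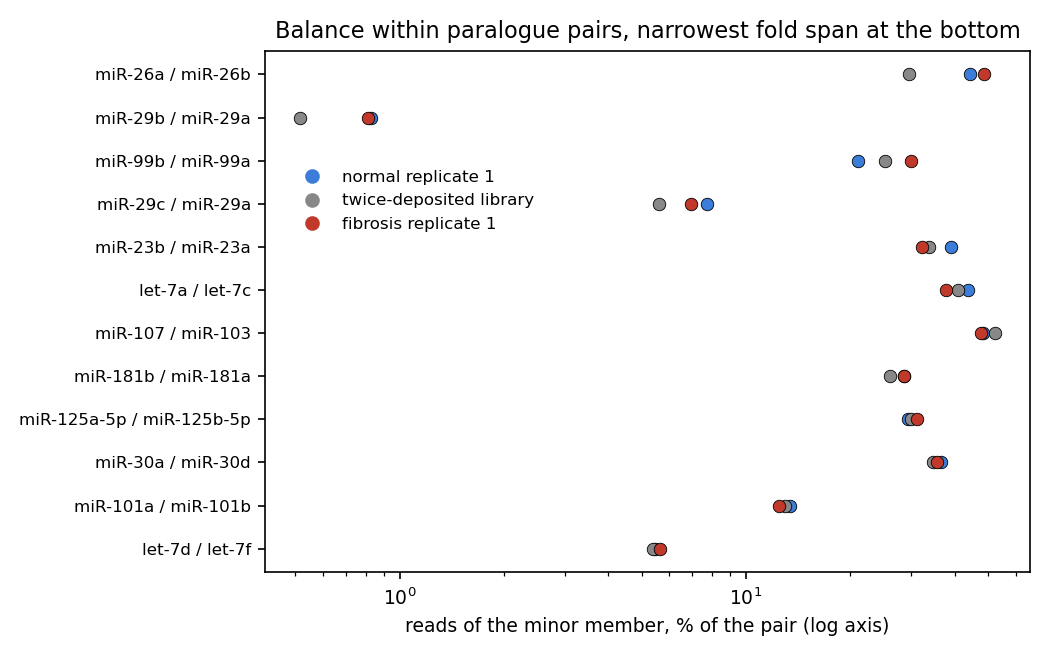
Share of the minor member among the reads of a pair, in percent on a log axis, for miR-101 and 11 other pairs, with 1 point per library and the narrowest fold span at the bottom. The miR-101 points lie between 12.4% and 13.4%, and the miR-26 points are the most widely spread in fold.

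The minor strands of both hairpins were unread. miR-101a* and miR-101b* had 0 reads in each of the 3 libraries, which allows between 0.424 and 0.472 RPM depending on the library (3 reads each). The miR-101b guide stood at 2644 times the set limit of 3 reads and the miR-101a guide at 376 times in fibrosis replicate 1. Both ratios were lowest in that library. Of 19 guide names averaging at least 100 RPM and a starred row of the same name, 7 had a starred strand at 0 reads in all 3 libraries, among them both miR-101 names. The absence of minor-strand reads was therefore shared with miR-26a, miR-26b, miR-107, miR-152 and miR-320.

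miR-144, which matches the members over bases 2 to 7 only, added little to this seed group. It had 14 reads in normal replicate 1 (1.98 RPM), 2 in the twice-deposited library (0.315 RPM) and 5 in fibrosis replicate 1 (0.719 RPM). These were 0.125% (0.0685 to 0.210), 0.0202% (0.00245 to 0.0731) and 0.0552% (0.0179 to 0.129) of the reads of the 3 miRNAs together. Fibrosis replicate 1 over normal replicate 1 gave a ratio of 0.363 for miR-144, with an interval from 0.102 to 1.07 that included 1.

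Comparing the libraries under undisputed labels sets 1 fibrosis library against 1 normal library, without a replicate check. Both members were lower in fibrosis replicate 1 than in normal replicate 1, at a ratio of 0.769 for miR-101a (0.711 to 0.831) and 0.834 for miR-101b (0.810 to 0.859). Neither passed 1.5-fold, which 7.89% did of the 76 miRNAs that averaged at least 10 RPM in these libraries. Both intervals lay below 1, as did those of 34.2% of these miRNAs, whose median ratio was 0.926. Counted from the lowest ratio, miR-101a was at place 9 and miR-101b at place 18 of 76. Relative to the median miRNA, the ratios were 0.830 for miR-101a and 0.901 for miR-101b, which does not depend on scaling. In bulk tissue, fewer hepatocytes and less miR-101 in each of them cannot be told apart. With 1 library on each side, neither can be told from a difference between single samples.

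In the deposited RPM the twice-deposited library lay near normal replicate 1 for these members, but not under every scaling. Its ratio to normal replicate 1 was 0.955 for miR-101a (0.885 to 1.03) and 0.989 for miR-101b (0.960 to 1.02), where 38.4% of 73 miRNAs had intervals below 1 and 27.4% passed 1.5-fold. Fibrosis replicate 1 over the twice-deposited library gave 0.805 for miR-101a (0.743 to 0.873) and 0.843 for miR-101b (0.818 to 0.870), both with intervals below 1 and within 1.5-fold, where 33.3% of 72 miRNAs had intervals below 1 and 19.4% passed 1.5-fold. If the twice-deposited library is normal liver, fibrosis replicate 1 was below 2 normal libraries. If it is fibrotic liver, the fibrosis libraries differ from each other by about as much as fibrosis replicate 1 does from normal replicate 1.

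Scaling decided part of this. Over 7 scalings of the reads, fibrosis replicate 1 over normal replicate 1 ran from 0.732 to 0.839 for miR-101a and from 0.794 to 0.911 for miR-101b, with all 7 intervals below 1 for each member. The ratio of the twice-deposited library to normal replicate 1 had no fixed side. It ran from 0.873 to 1.07 for miR-101a, with 1 of 7 intervals below 1 and 6 that included 1. For miR-101b it ran from 0.904 to 1.10, with 1 interval below 1, 4 above 1 and 2 that included 1. These scalings moved the median of all miRNAs by up to 0.16 on the log2 scale in that pair, by up to 0.13 between fibrosis replicate 1 and normal replicate 1, and by up to 0.21 between fibrosis replicate 1 and the twice-deposited library.

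**Figure D4:**
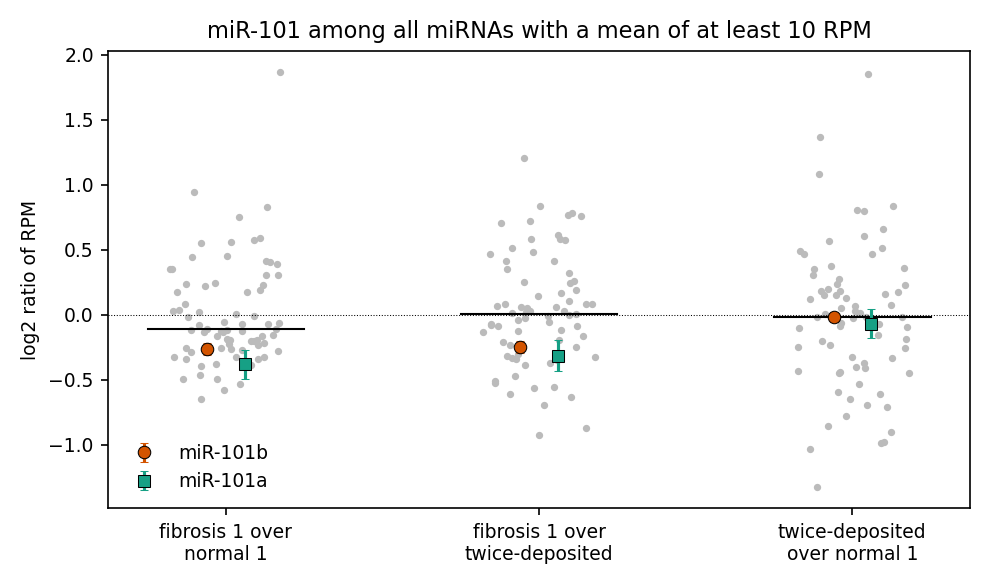
Log2 ratio of RPM for each pair of distinct libraries, with all miRNAs averaging at least 10 RPM in grey, their median as a black line, and miR-101b (circles) and miR-101a (squares) with 95% counting intervals. Both members lie below the median in each pair, but only slightly between the twice-deposited library and normal replicate 1, where their intervals include 0.

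Ratios to the hepatocyte miRNAs within a library avoid the choice of a total. Per 1000 reads of miR-122 there were 5.20 reads of miR-101b in normal replicate 1 (5.10 to 5.31), 5.46 in the twice-deposited library (5.34 to 5.57) and 4.68 in fibrosis replicate 1 (4.58 to 4.78). On the same measure there were 0.801 (0.761 to 0.843), 0.812 (0.768 to 0.858) and 0.665 (0.626 to 0.705) reads of miR-101a in the same order. Fibrosis replicate 1 was the lowest for both members, by a factor of 0.900 for miR-101b and 0.829 for miR-101a against normal replicate 1. Per 1000 reads of miR-192, which is also made by hepatocytes, miR-101b came to 153 (149.9 to 156), 180.6 (176 to 185) and 145.8 (142 to 149) reads, so fibrosis replicate 1 was again lowest and the twice-deposited library stood above both. Per 1000 reads of miR-192, miR-101a came to 23.6 (22.4 to 24.8), 26.9 (25.4 to 28.4) and 20.7 (19.5 to 22.0) reads, in the same order of libraries.

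Other miRNAs of hepatocytes and of liver disease lay to the same side in most cases. Of a list of 8 (miR-122, miR-192, miR-194, miR-193, miR-365, miR-33, miR-21 and miR-22), 7 were lower in fibrosis replicate 1 than in normal replicate 1 with intervals below 1, and miR-33, which represses cholesterol export, was higher at 1.78 (1.27 to 2.52). Among the 7 of them that averaged at least 10 RPM, 6 had intervals below 1, beside 34.2% of the 76 miRNAs above that minimum. The median ratio was 0.837 over all 8 of the list, of which miR-365 averaged under 10 RPM, beside 0.926 over the 76 miRNAs. The counts for this list are in deposited RPM. They were not repeated under the other scalings, which move every ratio of this pair of libraries. miR-22 stood at a ratio of 0.798 (0.717 to 0.888), between the members. miR-122 stood at 0.927 (0.925 to 0.929), nearer to 1 than either member and close to the median of all 76.

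Markers of other cells moved between the same libraries. The 4 mesenchymal markers, all read in each library, summed to 464 RPM in normal replicate 1, 1007 RPM in the twice-deposited library and 667 RPM in fibrosis replicate 1. The 4 leukocyte markers, all read in each library, summed to 28.0, 59.6 and 41.9 RPM in that order. Each sum followed 1 abundant member. miR-199a-3p stood at 350.5, 903 and 592 RPM, while miR-143 (97.3, 91.2 and 62.1 RPM) and miR-145 (13.7, 6.92 and 9.21 RPM) were highest in normal replicate 1, and miR-214 was at 2.55, 5.66 and 3.31 RPM. Of the leukocyte sums miR-142-5p made up most, at 26.4, 56.0 and 39.4 RPM. Both erythroid markers were read in each library and summed to 7.78, 2.05 and 2.88 RPM, and both endothelial ones to 6.51, 10.9 and 7.77 RPM. The 4 epithelial markers, of which miR-141 was at 0 in fibrosis replicate 1 and normal replicate 1, summed to 10.04, 6.92 and 10.5 RPM. The 3 striated muscle markers, of which miR-133a was at 0 in fibrosis replicate 1 and the twice-deposited library, summed to 5.23, 6.45 and 2.30 RPM. The part of these lists in the miR-101 difference was not tested.

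The miRNAs with the profile most like that of the members were sought over the 3 libraries, by the Euclidean distance between log2 RPM after each miRNA's own mean was subtracted. Among the 73 miRNAs that averaged at least 10 RPM over the libraries, the nearest to miR-101a were miR-99a (0.060), miR-101b (0.083), miR-125b-5p (0.096), let-7f (0.16) and miR-195 (0.16). The nearest to miR-101b were miR-125b-5p (0.030), miR-99a (0.068), let-7f (0.078), miR-101a (0.083) and let-7a (0.10). The median distances were 0.44 from miR-101a and 0.39 from miR-101b. miR-99a stood at 45.5 RPM in normal replicate 1, 46.1 RPM in the twice-deposited library and 36.4 RPM in fibrosis replicate 1, and miR-125b-5p at 46.8, 45.3 and 39.3 RPM. miR-101b was thus at place 2 from miR-101a and miR-101a at place 4 from miR-101b, and with 3 points these distances describe the libraries only. The order of RPM seen in both members, with normal replicate 1 highest and fibrosis replicate 1 lowest, was held by 9 of these 73 miRNAs (12.3%). In deposited RPM the step from normal replicate 1 to the twice-deposited library was within counting error for both members. That step had no fixed side over the scalings.

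In the comparison the labels imply, with all 4 files in their labelled groups, neither member passed. limma on log2(RPM + 1) gave fitted log2 differences, fibrosis minus normal, of -0.19 for miR-101a (SE 0.28) and -0.13 for miR-101b (SE 0.22), each with an adjusted p of 1 over 294 miRNAs. Over all miRNAs, 0 of 294 (0.0%) had an adjusted p under 0.05, 4 had an unadjusted p under 0.05, and edgeR's quasi-likelihood test and DESeq2 on the recovered reads called 0 each, with 0 at an unadjusted p under 0.05. Since replicates are not said to be separate animals, these p-values measure only the spread between these samples. In this fit 1 library stands in both groups, so each difference averages that between the other libraries with 0. The distance of the shared library from the others also counts as spread within each group. Such a fit could hardly call any miRNA, so no conclusion is drawn from its 0 calls. Counting the library once, limma gave log2 differences of -0.34 for miR-101a (SE 0.11, adjusted p 0.685) and -0.25 for miR-101b (SE 0.088, adjusted p 0.696) with it as normal. With it as fibrosis they were -0.22 (SE 0.22) and -0.14 (SE 0.17), each with a limma adjusted p of 0.723. The lone library is there assumed to vary like the pair in the other group, and these fits called 0 of 294 miRNAs (0.0%) as well, with 27 and 36 at an unadjusted p under 0.05.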

How the data were processed

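Rat liver RNA was extracted with TRIZOL and sequenced as small RNA on an Illumina kit per the labels, and the submitters' processing notes name CASAVA 1.4 and build rn5. Not given in the sources used here are the aligner, the miRNA annotation and the rule for multiply matching reads. The deposited values are RPM computed by the authors. Whole reads were recovered from the smallest step, and 100% of the nonzero values came out whole to within 0.01 reads.

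Shares and ratios carry exact (Clopper-Pearson) 95% binomial intervals, levels exact Poisson ones and odds ratios conditional exact ones. limma 3.58.1 (R 4.3.3) was run with its trend option on log2(RPM + 1) over names above 0 in any library, with Benjamini-Hochberg adjustment. It was tested on simulated data with a separate library for each sample, which does not cover a fit with the same library in both groups. edgeR 4.0.16 and DESeq2 1.42.0 were alternatives. Python 3.11.15, numpy 2.4.6, pandas 2.3.3, scipy 1.17.1 and matplotlib 3.10.9 were used. The members, lists and rules were chosen with earlier results of these data known. Named miRNAs are the members and their starred strands, 3 neighbours on each side in rank, sharers of bases 2 to 7, the 5 nearest profiles, and the listed liver miRNAs, pairs and markers. Alternatives covered scaling, pseudocount, filter, test, replicate block and left-out libraries.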

Additional observations from a re-analysis of the deposited data

How the results depend on the processing

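Both members stayed lower in fibrosis replicate 1 than in normal replicate 1 under every scaling and pseudocount tried. The miR-101a ratio moved beyond its counting interval to 0.839 with miR-122 and let-7 left out of the total. The miR-101b ratio moved to 0.874 with TMM, 0.872 with DESeq2 size factors, 0.911 when miR-122 and let-7 were dropped from the total, and 0.794 with upper-quartile factors. With the twice-deposited library in place of fibrosis replicate 1 the ratios were 0.955 for miR-101a and 0.989 for miR-101b. The balance was the same with starred strands added, which held 0 reads and could not change it. Among names without an asterisk miR-101a ranked 22 and miR-101b still 10, and without let-7 names they ranked 17 and 4, in each library, because fewer names were ranked. Leaving out 1 file at a time gave fitted log2 differences from -0.34 to -0.033 for miR-101a and from -0.25 to -0.0081 for miR-101b. The values nearest 0 came without fibrosis replicate 1, where no undisputed fibrosis library remains. In all 14 alternative fits the sign was kept for both members, and those with all 4 files called 0 miRNAs. Of the 14, 12 were distinct, because leaving out either copy of the twice-deposited library equals counting it once. These signs are not separate checks. With all 4 files that library cancels from the difference, so fibrosis replicate 1 against normal replicate 1 set the sign. Without fibrosis replicate 1 the sign came from the twice-deposited library over normal replicate 1 in deposited RPM. That ratio had no fixed side over the 7 scalings. The replicate block gave -0.19 and -0.13 with a limma adjusted p of 0.602 for each, but the labels share only a number, and the second pair is 1 library set against itself. Without a filter limma warned that its variance estimate was unreliable.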
